A study of Drosophila melanogaster with 3 samples.

Results

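The 6 genes Hmr, Lhr, gfzf, Nup98-96, Nup160 and OdsH, known from studies of incompatibility between fly species, were examined for binding of the Hmr protein itself. They were chosen by name, and they are 6 of the 13945 protein-coding genes on the 6 chromosomes that the peak lists cover. Chromatin immunoprecipitation followed by sequencing (ChIP-seq) had been done with an antibody against GFP on pooled male and female embryos of Drosophila melanogaster aged 0 to 24 h, taken whole. All embryos came from a transgenic line of the strain named Hmr-GFP, which stably expressed Hmr with GFP at its C terminus. There was 1 group of 3 biological replicates of that line, so no comparison between conditions could be made. The labels used here do not give the promoter that drives the tagged copy, and a pool of whole embryos cannot say in which cells a site was bound.

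The data were lists of peaks. The optimal list held 8131 peaks kept by irreproducible discovery rate, a measure of how well the ranks of peaks repeat between replicates; they are the 8131 entries of highest signal in the pooled list. A relaxed list of 30000 peaks and background regions had been called for each replicate, and another for the reads of all 3 replicates pooled. The sequencing depth is unknown, and each relaxed list has the same length, so the number of entries says nothing of a replicate. The signal is the authors' value for a peak and is not comparable between lists. Entries were therefore compared by the percentile of their signal within a list, where 100 is the strongest entry. A strong entry below is one of the 8131 strongest of a replicate. All entries with a summit in the gene or within 5 kb of it were taken, and coordinates are from dm6, counted from 1.

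Hybrid incompatibility arises when genes that diverged in separate species fail to work together in their offspring. Hmr (Hybrid male rescue) encodes a DNA-associated protein with MADF and BESS domains, and Lhr (Lethal hybrid rescue) encodes its partner, which binds the heterochromatin protein HP1. Loss of Hmr from D. melanogaster, or of Lhr from D. simulans, rescues hybrid sons of these species, and gfzf, which encodes a protein with FLYWCH zinc fingers and a glutathione S-transferase domain, is a further gene needed for that lethality. Nup98-96 and Nup160 encode components of the nuclear pore whose D. simulans alleles are linked to lethality of certain hybrids that carry a D. melanogaster X. OdsH (Odysseus) encodes a homeodomain protein linked to sterility of hybrid males between D. simulans and D. mauritiana.

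The start regions that carry the contrast between the genes are shown on the plus strand, from the Release 6 sequence that dm6 names. Capitals mark matches, on either strand, to any of 8 short sequences searched, which are given with their letters further on. The stretches between the divergent starts of Csl4 and Nup160, chr2L:11123568-11123776, and upstream of gfzf, chr3R:7151028-7151198, lie at the summits found in replicates 2 and 3 alone. The stretch between the starts of Nup98-96 and mbc, chr3R:23781622-23781764, lies beside the strongest site at the start of a member. The stretch between the starts of Hmr and CG2124, chrX:10595856-10596121, has no entry in any list. The stretch inside OdsH, chrX:17802733-17802933, is centred on its intronic summit.
Csl4 to Nup160: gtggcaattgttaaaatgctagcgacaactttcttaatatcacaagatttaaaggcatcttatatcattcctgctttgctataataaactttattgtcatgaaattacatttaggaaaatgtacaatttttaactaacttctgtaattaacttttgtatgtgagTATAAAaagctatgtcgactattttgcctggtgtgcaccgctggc
gfzf upstream: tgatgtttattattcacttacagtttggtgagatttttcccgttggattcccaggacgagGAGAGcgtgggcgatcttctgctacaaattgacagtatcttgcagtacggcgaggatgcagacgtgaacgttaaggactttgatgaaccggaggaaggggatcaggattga
Nup98-96 to mbc: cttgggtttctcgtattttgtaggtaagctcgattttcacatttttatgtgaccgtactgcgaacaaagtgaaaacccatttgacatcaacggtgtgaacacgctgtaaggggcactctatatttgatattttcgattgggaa
Hmr to CG2124: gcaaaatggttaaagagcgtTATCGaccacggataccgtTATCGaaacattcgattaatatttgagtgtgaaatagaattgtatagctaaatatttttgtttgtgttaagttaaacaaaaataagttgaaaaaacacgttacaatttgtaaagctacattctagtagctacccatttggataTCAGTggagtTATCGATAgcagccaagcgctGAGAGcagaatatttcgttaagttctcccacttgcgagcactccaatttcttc
OdsH intron: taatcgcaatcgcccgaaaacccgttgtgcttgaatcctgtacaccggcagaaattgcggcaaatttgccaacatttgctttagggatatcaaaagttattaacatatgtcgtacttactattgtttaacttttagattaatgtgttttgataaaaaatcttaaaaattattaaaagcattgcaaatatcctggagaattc

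Across the 6 windows, which span 107.2 kb, there were 13 optimal summits, and all but 2 of them lay outside the member gene. The density was 1.21 summits per 10 kb, against 0.607 over the 6 chromosomes. The latter value also covers stretches far from any gene. The density over the same windows of all protein-coding genes was not computed, so the 2 values are not on equal terms. The Nup98-96 window held 6 of the 13, and without it the density was 0.78 per 10 kb. A window held an optimal summit for 5 of 6 members, and for 59.3% of all protein-coding genes. Of the 6 members 2, Lhr and Nup98-96, had an optimal summit within 250 bp of an own start, beside 23.4% of protein-coding genes. With all entries of the pooled list the count was also 2 members, beside 36.3%. With 6 genes, these counts show neither a lack nor an excess. Of the 13 summits, 2 had a member's start as their nearest start, 1 at Nup98-96 and 1 deep inside OdsH. The other summits were nearest to starts of neighbours. Neither this count nor that of summits outside the member gene was computed over the windows of all protein-coding genes. Both only describe these 13 summits. The caller's q-value did not separate the sites, since 11 of the 13 stood at the most significant value of the list. So did 5216 of all 8131 optimal peaks.

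**Figure D1:**
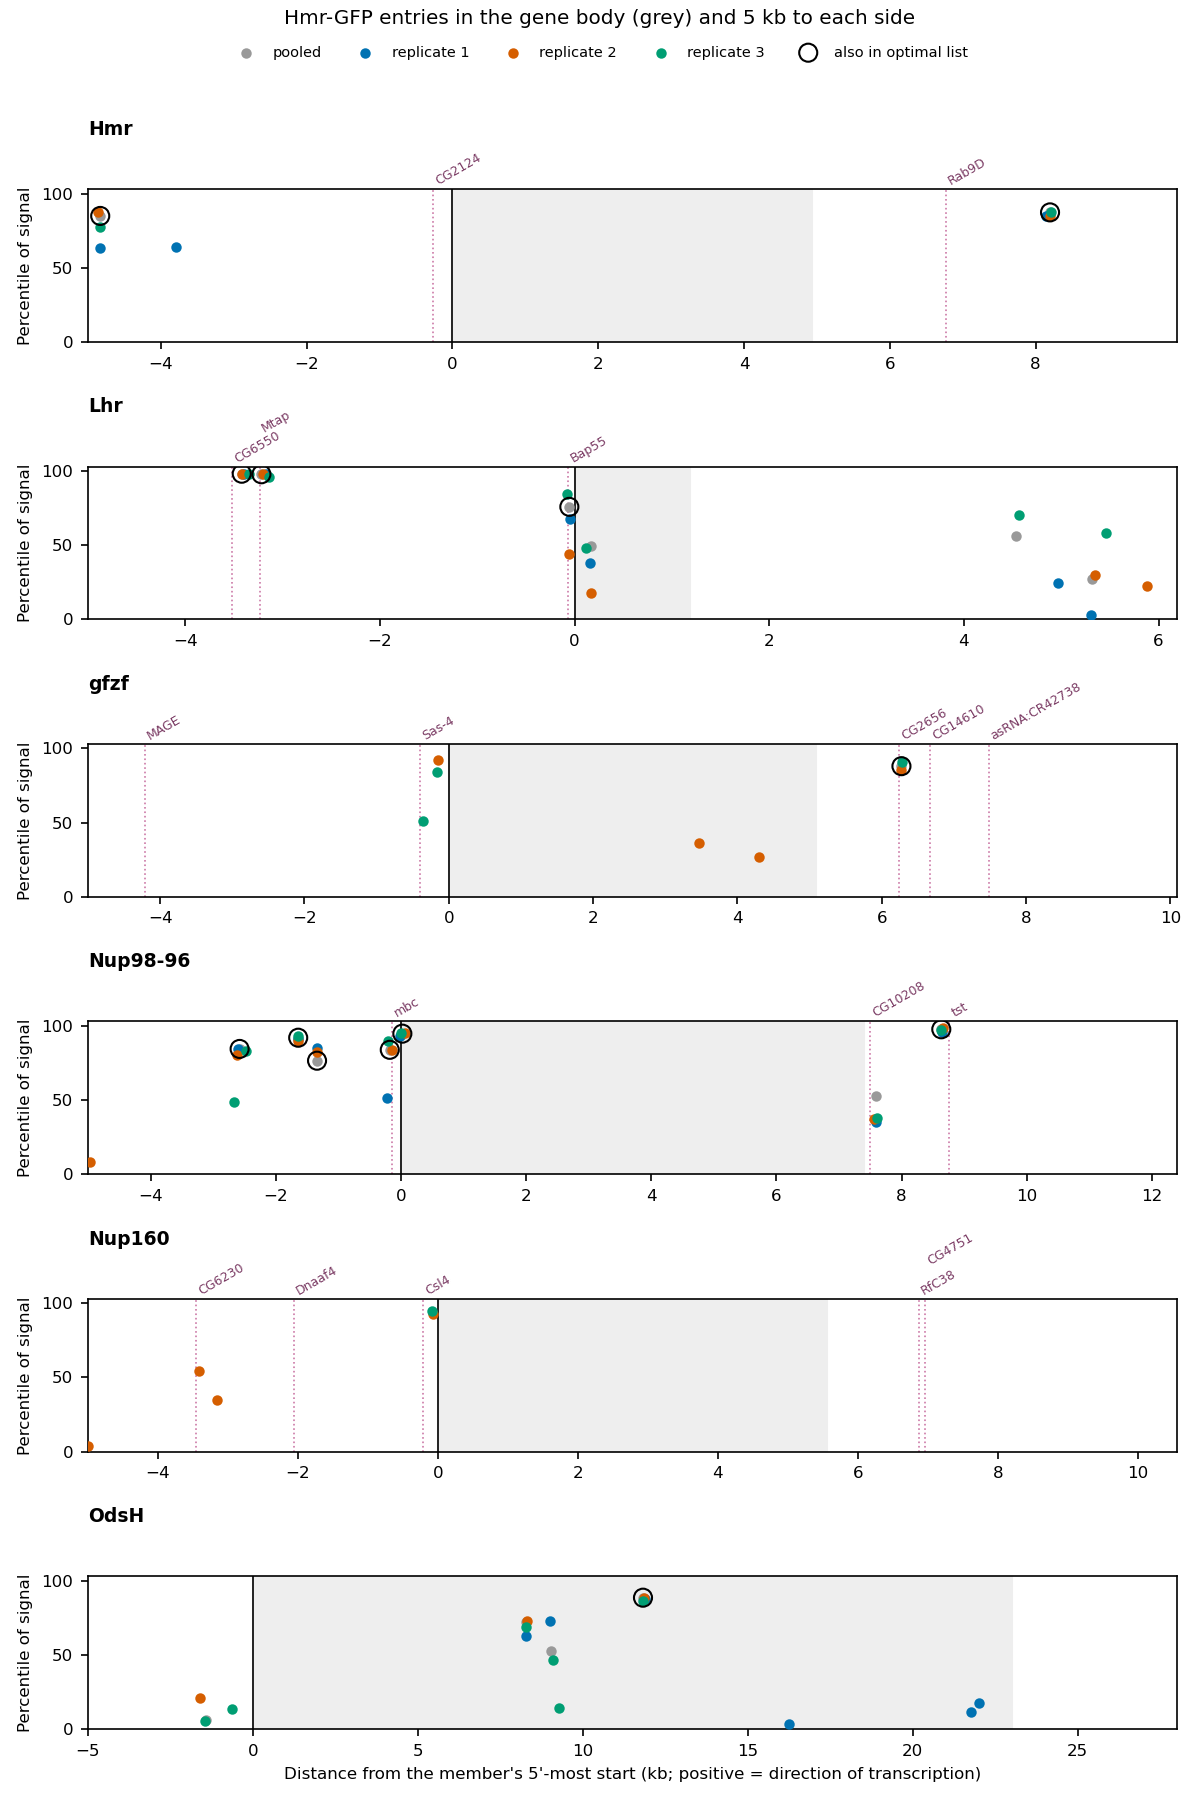
Entries in the gene (grey) and 5 kb to each side of the 6 members, by distance from the 5′-most start in kb (positive in the direction of transcription) and by percentile of signal within the list. Dots are entries of the pooled list and of the 3 replicate lists, open circles mark pooled entries that are also in the optimal list, and dotted lines are starts of neighbours; the gene bodies of Hmr and Nup160 hold no dot, and at the starts of gfzf and Nup160 only dots of replicates 2 and 3 stand near the top.

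The gene of the immunoprecipitated protein had no entry of its own. Hmr (FBgn0001206) lies on X from 10590920 to 10595855 on the minus strand, with a single start 267 bp from the divergent start of CG2124. None of the 5 lists had an entry in the gene body or within 250 bp of the start. Bodies without an entry in any list were those of 2 of the 6 members, Hmr and Nup160, and of 54.6% of protein-coding genes. Soft-masked repeats made up 9.57% of the Hmr window. A low share of repeats does not show how many reads could be placed there.

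The optimal peaks of the Hmr window lay outside the gene, on either side of it. The peak downstream, from 10587597 to 10587771, lay between genes, 1431 bp upstream of Rab9D, the gene of a Rab GTPase. Its pooled signal was 290 and its rank 3797, and its percentiles in replicates 1, 2 and 3 were 84.8, 85.1 and 87.5. These are close to each other, with a mean of 85.8 ± 1.49 (SD, n = 3). The peak upstream, from 10600459 to 10600914, lay in an intron of CG1628, 4832 bp from the start of Hmr. Its percentiles were 63.3, 87.7 and 77.6, so replicate 1 was low, and its mean was 76.2 ± 12.3 (SD, n = 3). Replicate 1 alone had a further entry at 10599649, at percentile 63.9.

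Lhr had a weak entry at its start and a strong pair of peaks 3 kb away that were nearest to other starts. Lhr (FBgn0034217), on 2R from 17431032 to 17432219 on the plus strand, starts 69 bp from the divergent Bap55, which encodes an actin-related subunit of the Brahma remodelling complex. The pooled summit at 17430978 lay between both starts, 54 bp upstream of Lhr and 15 bp upstream of Bap55. Its percentiles were 67.4 in replicate 1, 44.4 in replicate 2 and 84.6 in replicate 3. It was a strong entry in replicate 3 alone, and its mean was 65.5 ± 20.2 (SD, n = 3). A second, weaker pooled entry lay 164 bp inside Lhr, in coding sequence, at percentiles of 37.7, 18.0 and 48.1.

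The strong pair in the Lhr window lay near the divergent starts of CG6550 and Mtap, the latter the gene of methylthioadenosine phosphorylase. The summit at 17427612, 101 bp upstream of CG6550, had a signal of 925 and rank 541, the highest of all 13. Its percentiles of 98.3, 98.1 and 98.1 gave a mean of 98.2 ± 0.15 (SD, n = 3). The summit at 17427814, 19 bp inside Mtap, had a signal of 841 and a mean of 97.2 ± 0.951 (SD, n = 3). Both were strong in every replicate, 3420 and 3218 bp from the start of Lhr. On the other side of Lhr lay only pooled entries below the optimal threshold, at 17435572 and 17436350 in an intron of EDTP, with signals of 98.2 and 59.3. The first had an entry within 200 bp in replicate 3 alone.

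Nup98-96 had the most sites, and its start was bound at a like rank in every replicate. Nup98-96 (FBgn0039120), on 3R from 23774225 to 23781621 on the minus strand, encodes a polyprotein that is cleaved into the pore proteins Nup98 and Nup96. Its window of 17397 bp held 6 optimal summits, or 3.45 per 10 kb, and 3.38% of protein-coding genes had at least as many in theirs. That share compares counts with no allowance for window length, which grows with the gene. The summit at 23781598, in a peak from 23781438 to 23781688, lay 23 bp inside the outer of its 2 starts, with a signal of 519 and rank 1568. Its percentiles were 93.5, 94.9 and 95.2, a mean of 94.5 ± 0.94 (SD, n = 3). The replicate summits lay within 82 bp of each other.

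The other optimal sites of the Nup98-96 window were nearest to starts of its neighbours. The start of mbc (myoblast city), whose product activates Rac in muscle fusion and cell movement, lies 144 bp away on the opposite strand. A summit at 23781799, 34 bp inside mbc and 178 bp upstream of the Nup98-96 start, had percentiles of 51.1, 83.7 and 89.8. Replicate 1 was low there, though a strong summit of the same replicate, that at the Nup98-96 start, lay within 200 bp. Inside introns of mbc followed summits at 23782961, 23783262 and 23784198, with signals of 175, 400 and 247. The middle one was even across replicates, at 91.4 ± 1.58 (SD, n = 3). The first had no entry within 200 bp in replicate 3, and the last had its nearest entry in replicate 3 at percentile 48.7. Replicate 3 held a stronger entry 105 bp away, at percentile 83.2.

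The strongest peak of the Nup98-96 window lay beyond the end of the gene. Its summit at 23772987 was 128 bp upstream of tst (twister), the gene of an RNA helicase, with a signal of 821 and rank 685. Its percentiles were 96.1, 98.5 and 97.2, a mean of 97.3 ± 1.21 (SD, n = 3). No optimal summit lay in the gene body apart from the one at the start.

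Nup160 and gfzf had strong entries at their starts in replicates 2 and 3, and none in replicate 1 or the pooled list. Nup160 (FBgn0262647) encodes a scaffold protein of the pore and lies on 2L from 11123777 to 11129335 on the plus strand, 210 bp from the divergent start of Csl4, which encodes an exosome subunit. The Nup160 summit lay at 11123708 in replicate 2, with a signal of 153 and rank 2071, and at 11123690 in replicate 3, with a signal of 199 and rank 1533. These are percentiles of 93.1 and 94.9, close to the 94.9 and 95.2 at the Nup98-96 start in the same replicates. Replicate 1 and the pooled list had no entry in the whole window of 15559 bp. Replicate 2 had 3 more entries there, at percentiles from 3.89 to 54.1.

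The gfzf start showed the same set of lists. gfzf (FBgn0250732) lies on 3R from 7145880 to 7150968 on the minus strand, has 2 annotated starts, and is spanned by CG2656 on the plus strand. The summit upstream of its outer start lay at 7151122 in replicate 2, with rank 2354, and at 7151128 in replicate 3, with rank 4829, in coding sequence of CG2656. The percentiles were 92.2 and 83.9. The start of Sas-4, a gene of centriole duplication, lies 399 bp from that of gfzf on the opposite strand. Replicate 2 also had weak entries inside gfzf, at percentiles 36.5 and 27.0. The only optimal summit of the window, at 7144695, lay 29 bp upstream of CG2656 and 2683 bp from the inner gfzf start. It had a signal of 304, percentiles of 85.8 in replicate 2 and 91.2 in replicate 3, and again no entry in replicate 1.

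Counted by replicate, the number of members with a strong entry at a start was therefore 1 of 6 in replicate 1, 3 of 6 in replicate 2 and 4 of 6 in replicate 3. The shares of all protein-coding genes were 22.4%, 23.5% and 27.6%. The pattern of gfzf and Nup160, strong at a start in both replicates 2 and 3 but with no entry there in replicate 1 or the pooled list, was met by 206 protein-coding genes, or 1.48%. It was sought after these 2 members had been seen to show it, so their count is a description. Over all summits strong in replicates 2 and 3, 420 of 6160 had none within 500 bp in replicate 1, and 219 had none in the pooled list. Of those strong in replicates 1 and 2, 28 of 5526 had none in replicate 3. Of those strong in replicates 1 and 3, 243 of 5904 had none in replicate 2. Why a site strong in 2 replicates is missing from the list called on all reads was not tested.

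**Figure D2:**
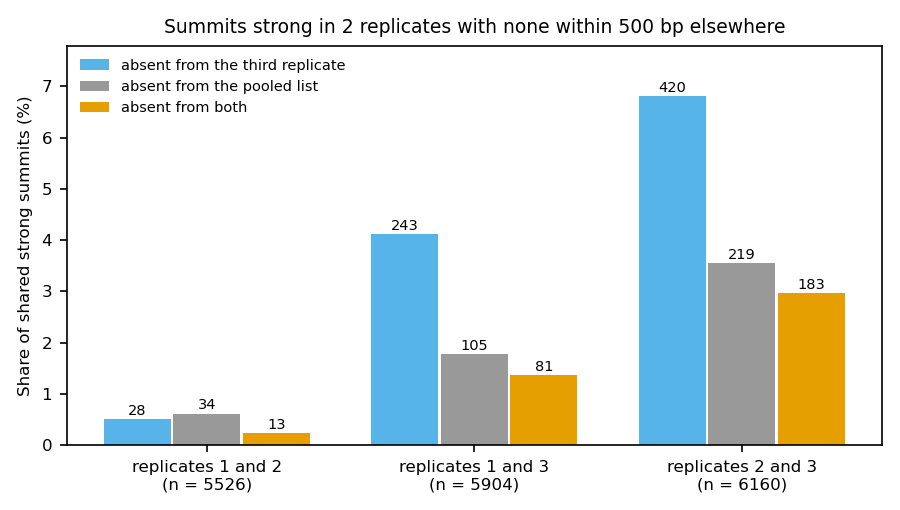
Share, in percent, of summits strong in both replicates of a pair that have no summit within 500 bp in the third replicate (blue), in the pooled list (grey) or in both (orange), with the number of summits above each bar. The bars for replicates 2 and 3 are the highest, with 420, 219 and 183 of 6160 summits.

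OdsH had a site far inside the gene and none at its start. OdsH (FBgn0026058) is the longest member, on X from 17791010 to 17814011 on the plus strand, with no other gene within 5 kb. The related homeobox gene unc-4 lies 12302 bp upstream. The optimal summit at 17802833 lay in an intron, 11823 bp from the start, in a narrow peak of 125 bp with a signal of 313 and rank 3423. Its percentiles were 87.6, 88.3 and 86.2, a mean of 87.4 ± 1.06 (SD, n = 3).

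Other entries of OdsH were weaker. The pooled entry at 17799300, also intronic, ranked 8427, just below the 8131 entries kept as optimal, and its percentiles were 62.6, 72.8 and 68.5. The pooled entry at 17800051 had an entry in replicates 1 and 3, at percentiles 72.6 and 46.3, and none in replicate 2. Upstream of the start, the pooled entry at 17789578 was weak at percentile 6.03, and replicate 1 had none there. Soft-masked repeats made up 19.4% of the OdsH window, against 6.45% to 10.6% in the others.

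Ordered by the mean replicate percentile at the strongest pooled entry of each window, Lhr stood at 98.2 and Nup98-96 at 97.3, which did not differ beyond their spread. They were followed by gfzf at 88.5 ± 3.82 (SD, n = 2, no entry in replicate 1) and OdsH at 87.4, again within their spread of each other. The replicate without an entry was left out of the gfzf mean and not counted as low, which favours gfzf in this order. In the pooled list itself OdsH stood above gfzf, at percentiles of 88.6 and 88.1. Hmr came last at 85.8, below OdsH by slightly more than the SD of either, and Nup160 had no pooled entry. The order changed with entries at the members' own starts. Nup98-96 stood at 94.5 ± 0.94 (SD, n = 3) and Nup160 at 94.0 ± 1.27 (SD, n = 2), followed by gfzf at 88.0 ± 5.83 (SD, n = 2) and Lhr at 65.5 ± 20.2 (SD, n = 3). The means of Nup160 and gfzf leave out replicate 1, where these sites had no entry, so they cover only replicates that listed the site. Their sites were placed on the replicate 3 summit, and those of Nup98-96 and Lhr on the pooled summit. Nup160 is therefore not shown to equal Nup98-96. With the wide SD of Lhr as well, no firm order is set among these 4 members. Hmr and OdsH had no entry within 250 bp of a start.

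**Figure D3:**
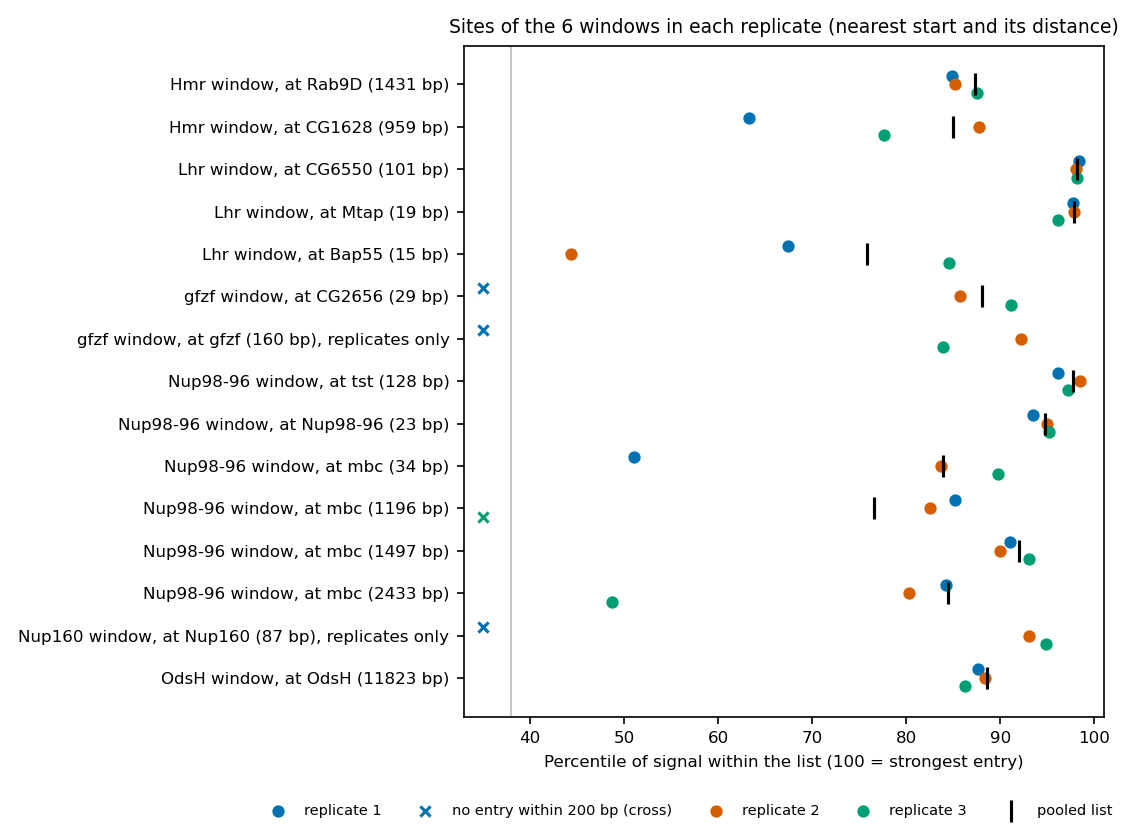
Percentile of signal (100 is the strongest entry of a list) in each replicate for the 13 optimal sites and the 2 sites found in replicates only, named by the member's window and the nearest start with its distance in bp. Dots are replicates, black marks the pooled list, and crosses left of the line mark replicates with no entry within 200 bp; replicate 1 has a cross at both gfzf sites and at Nup160.

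Within 200 bp, 9 of the 13 optimal summits had a strong entry in each of the 3 replicates, against 59.7% of all optimal summits. Such a strong entry need not be the nearest one: at 2 summits inside mbc a weaker entry was nearer in 1 replicate. Where the nearest entry itself had to be strong, a count added after seeing the data, it was 7 of 13, against 57.3%. In the full replicate lists it was 11 of 13, against 91.5%. Since pooled peaks come from the reads of the same replicates, such matches are not independent of the list. The genes most like a member were sought by the distance between the percentiles of the strongest pooled entry at a start over the 3 replicates, among 3367 protein-coding genes with an entry in each. For Nup98-96 these were CG42542 and CG4558, at distances of 0.648 and 0.65 percentile points. For Lhr they were Det and m-cup, both at 5.47, with the same percentiles of 62.0, 43.7 and 85.0.

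The short sequences differed between the starts, with no simple relation to the entries. Both strands were searched for 8 of them. These were the DRE, TATCGATA, and the core of the M1BP site, GGTCACAC. A further one was CGATA, known as the core of the site of the insulator protein BEAF-32. For the GAGA factor the letters GAGAG were used. For the early embryonic activator Zelda they were CAGGTAG, and for an E-box they were CAGCTG. Of the core promoter elements, the TATA box was searched as TATAAA. The initiator was searched as TCAGT. The BEAF-32 core is part of the DRE, so each DRE also counts as such a match. The stretch from 250 bp before to 50 bp after the Hmr start held a DRE, which the factor Dref binds, and 4 matches to the BEAF-32 core, 2 of them within the DRE. A DRE was found in 8.91% of the same stretches of protein-coding genes, taken at 1 start per gene, and within 100 bp of 3.37% of optimal summits. The stretch is longer than the span searched around a summit, so shares of the 2 kinds are not on equal terms. The stretch of Lhr held 3 BEAF-32 cores, which 47.1% of stretches had at least once.

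Nup160 and the inner start of Nup98-96 each had 1 M1BP core, bound by a pausing factor of housekeeping promoters, 222 and 53 bp upstream of the start. This sequence was found in 7.41% of the stretches and near 3.38% of optimal summits, again over unlike lengths. The one of Nup160 lies just inside Csl4, outside the letters shown above. Within 100 bp of the summit, the start sites of Nup160 and Nup98-96 each had 1 TATA box sequence, which was near 32.5% of all optimal summits. The gfzf site had 1 GAGA factor sequence, which was near 24.0%. The OdsH summit had none of the 8. These matches describe letters, not bound factors.

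Families and pathways of the members were counted in the same way, as a description and with no test. Of 27 other nucleoporin genes 5 had one (18.5%), set beside 23.4% of protein-coding genes. They were led by Nup37 at a signal of 2463, whose summit was 149 bp upstream of it but 5 bp from the start of RpS27, a ribosomal protein gene. Nup93-2 followed at 397 and Sec13, also part of the COPII coat, at 347. The pattern of gfzf and Nup160, met by 1.48% of protein-coding genes, was shown by Nup133 alone among these 27. Nup133 was named after its entries had been seen.

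Among partners of Hmr and HP1, 8 of 20 had an optimal summit at a start, with HP4 at 713, followed by HP5 at 409 and then vig at 359. For HP5 the start of Evi5 was nearer. Of 11 MADF or BESS domain genes, the family of Hmr, 4 had one (36.4%), led by brwl at 2325, Adf1 at 605 and BEAF-32 at 301. The start of a long non-coding RNA was nearer to the brwl summit, at 45 bp, and that of Dpit47 to the Adf1 summit, at 20 bp. Of 20 homeobox genes of the paired class, to which OdsH belongs, 2 had one, namely ey, a master gene of eye development, at 871 and Ptx1 at 201. Of 35 cytosolic glutathione S-transferase genes 8 had one (22.9%), led by GstE13 at 1976, GstE12 at 492 and GstE10 at 402. Neither mod(mdg4), which also carries FLYWCH fingers, nor M1BP had an optimal summit at a start. JYalpha, another gene of hybrid male sterility, had no pooled entry there.

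**Figure D4:**
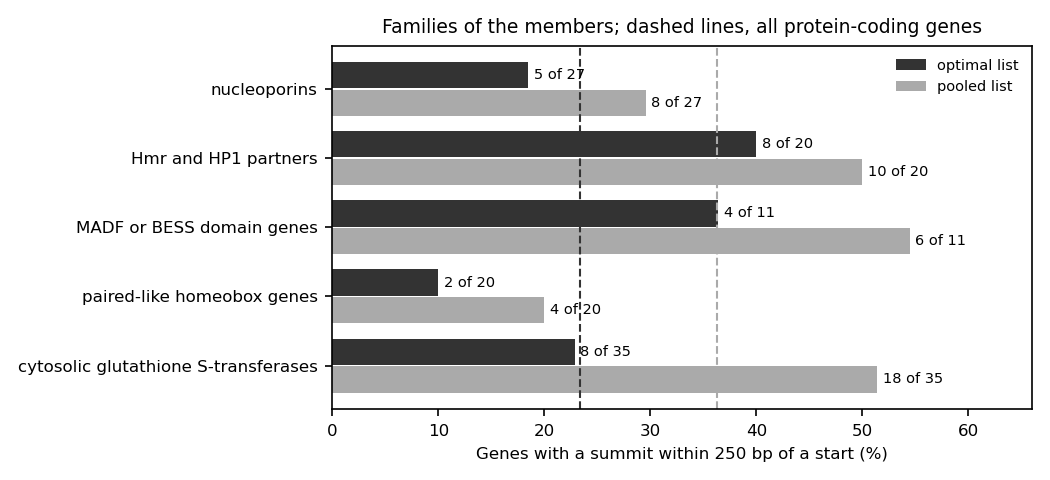
Share of genes, in percent, with an optimal (black) or pooled (grey) summit within 250 bp of a start in 5 families or pathways related to the members, with counts beside the bars. Dashed lines are the shares of all protein-coding genes, 23.4% and 36.3%. The homeobox genes labelled paired-like, which are the list of the paired class, have the shortest black bar, at 2 of 20. The partners of Hmr and HP1 have the longest, at 8 of 20.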

How the data were processed

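ChIP-seq peak lists of 3 replicates were analysed. Per text files that accompany the deposited lists, the authors made a relaxed list for each replicate and for the pooled reads, and kept an optimal list by irreproducible discovery rate. The labels name a possible control experiment. Its use, the peak caller, the aligner and thresholds: not given in the sources used here. The labels give sonicated fragments of 200 to 800 bp. The deposited column 7 is the caller's signal per peak, on a scale that is not stated, and the deposited column 9 is −log10 of the q-value, as its format defines it. Lists in dm3 were not used, since the gene models are of Release 6, the assembly of dm6, and coordinates were not converted.

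Gene models were those of Ensembl release 115 (FlyBase 6.54), and sequence came from the RefSeq copy of Release 6. No peak ended beyond a chromosome of that assembly. Of the family symbols, Mtor and GstO4 were not found, Nup88 and mbo name the same gene, as do Dip3 and Dlip3, and Cal1 is listed as cal1.

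Percentiles in a replicate are those of the nearest summit within 200 bp, while a match among strong entries needed any strong summit within that distance. Signal was ranked within each list, and SDs are over replicates. Nothing shows whether replicates were separate collections beyond their labels. No test was made: there was 1 group and 6 named genes, so counts stand beside the share of all protein-coding genes. Named by rule were the members, genes nearest to their entries, the 3 strongest per family list and the 2 closest genes per member with a pooled entry at a start. Further genes were named outside this rule, among them the neighbours Csl4, CG2124 and unc-4, and mod(mdg4), M1BP and JYalpha. Nup133 was picked after its entries had been seen. The counting steps were tested on planted summits. Members and lists were chosen with earlier results of these data known. Depth is unknown, so no interval is given. Alternatives were other distances, windows, lists and replicates left out. Python 3.11.15, numpy 2.4.6 and pandas 2.3.3 were used.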

Additional observations from a re-analysis of the deposited data

How the results depend on the processing

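The 2 members with an optimal summit at a start became 1, Nup98-96, if only the nearest start of each summit was counted or only peaks of above-median signal were kept. It was 1 with any replicate left out, where strong entries in both others were required beside the optimal summit. The optimal list, made with all 3 replicates, was kept, so these counts could only fall. gfzf and Nup160, strong at a start in replicates 2 and 3, could not enter when replicate 1 was left out. The same limit holds for the other counts of members and summits with a replicate left out. With the strong entries of replicate 1, 2 or 3 in place of the optimal list, an alternative chosen after seeing the data, the counts were 1, 3 and 4. The 5 members with an optimal summit in the window became 2 with gene bodies alone, and were 4 to 5 with a replicate left out. The 13 summits in the windows became 2 with gene bodies alone, 8 within 2 kb, 26 within 10 kb, 8 of above-median signal, and 9 to 11 with a replicate left out. The 9 summits matched in all replicates were 7 to 11 under all alternatives. Mean percentiles at the strongest entry moved with the entry taken: 65.5 at the start of Lhr in place of 98.2, and 94.5 at that of Nup98-96 in place of 97.3. Match distances of 100 and 500 bp did not change the means at the strongest entries, and they were not tried for the means at the starts. No paired analysis was possible because there was 1 group. Depth is unknown, so a missing entry does not show that a site was unbound.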
